A study of Solanum lycopersicum with 6 samples.

Results

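Pectin is the gel-forming polysaccharide of the primary cell wall and the middle lamella, and its controlled breakdown accompanies the softening of tomato fruit. It is laid down in a methyl-esterified form, pectinesterases remove the methyl groups, and polygalacturonases and pectate lyases cut the exposed backbone. Pectin acetylesterases remove acetyl groups, rhamnogalacturonate lyases cut the rhamnose-containing backbone, and β-galactosidases trim galactan side chains. Small inhibitor proteins bind pectinesterases, and leucine-rich repeat proteins bind polygalacturonases of pathogens.

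The pectin-modifying enzyme families were taken from the gene descriptions of the expression table, by the words polygalacturonase, pectate lyase, pectinesterase or pectin methylesterase, pectin acetylesterase, rhamnogalacturonan or rhamnogalacturonate, and β-galactosidase. The rule found 210 of 40229 gene models, and it also takes in genes described as inhibitors of these enzymes. Many of those counted as pectinesterase inhibitors are described only as invertase/pectin methylesterase inhibitor superfamily proteins. That description does not say which of the enzymes is inhibited. It leaves out 54 genes described only as pectin lyase-like, a fold that polygalacturonases share, and 1 β-galactosidase gene spelled differently in the table. The 210 genes comprised 79 pectinesterases, 35 pectinesterase inhibitors, 26 pectate lyases, 24 β-galactosidases, 19 pectin acetylesterases, 14 rhamnogalacturonate lyases, 8 polygalacturonases, 3 polygalacturonase-inhibiting proteins and 2 non-catalytic β subunits of polygalacturonase.

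RNA-seq was run on fruit of tomato (Solanum lycopersicum), with no part of the fruit named, 25 days after anthesis, with 3 libraries from wild type of the dwarf cultivar Micro Tom and 3 from the line labelled SlLBD40-KO, also called the sllbd40 mutant. SlLBD40 encodes a transcription factor of the LATERAL ORGAN BOUNDARIES domain family. The labels name neither the edit nor the number of lines behind the knockout samples, and they do not say whether a replicate was 1 plant or a pool, so the tests rest on the spread of these 6 libraries, which may be technical. No library is called by its sample title here: wild type 1 to 3 and knockout 1 to 3 are the numbers of the table's columns, which do not pair the genotypes.

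Each library is expressed in TPM, a transcript level per gene length and per library that sums to just under 1e+06. Between 17352 and 18693 genes reached 1 TPM per library. The gene taken from general knowledge as SlLBD40 (Solyc02g085910) stood at 1.57, 5.35 and 1.90 TPM in the wild-type libraries, compared with 0.77, 2.51 and 3.85 TPM in those of the knockout, so this level is no check of the genotype labels, and another gene of the table bears the description LOB domain-containing protein 40. Fruit identity genes were present in every library, with the fruit MADS-box gene Tomato AGAMOUS-like 1 between 164 and 241 TPM. Wild type 1 and knockout 1 held seed RNA: a 2S albumin gene (Solyc08g080490), a seed storage protein, stood at 2171 and 1675 TPM there and between 0 and 37.0 TPM in the other 4. Knockout 3 had the highest levels of the ripening regulator RIN and of phytoene synthase 1, given below. In addition, the sequencing lanes named by the labels and the prefix of the sample titles differ between the genotypes, and the series title speaks of different fruit stages. What lane or prefix marks cannot be told apart from genotype.

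Of the 210 genes, 82 were listed at 0 in all 6 libraries, and 67 reached at least 1 TPM in at least 3 libraries and were tested. The 143 that were not tested had means of at most 2.22 TPM; this highest one is a pectinesterase gene (Solyc03g078090) with 12.02 TPM in wild type 3 and at most 1.04 TPM elsewhere. Among those tested the lowest mean was 0.863 TPM. Since 3 libraries of 1 genotype are enough for a gene to be tested, the counts and medians over tested genes below are descriptions. The tested genes were 18 pectinesterases, 12 β-galactosidases, 11 pectate lyases, 9 pectinesterase inhibitors, 6 pectin acetylesterases, 4 rhamnogalacturonate lyases, 3 polygalacturonases, 2 β subunits and 2 polygalacturonase-inhibiting proteins.

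The comparison of the genotypes asked which of these transcripts differ between wild-type and knockout fruit. None of the 67 genes passed the test, limma on log2(TPM + 1) with an adjusted p under 0.05 over all 18368 genes, where 0.0926% of all genes were called. Most of the tested genes nevertheless had lower means of log2(TPM + 1) in the knockout. Of 67 genes 46 were lower and 21 higher, against a background of 56.5% lower and 43.5% higher. Counts of lower and higher means below also use this scale. Some genes counted as lower, such as Solyc03g123620, had a higher mean TPM in the knockout. At an unadjusted limma p under 0.05, 21 were lower and 4 higher, which is 31.3% and 5.97% of those tested, beside 11.3% and 6.24% of all genes. Without both seed-rich libraries these counts were 12 and 1, where the shares of all genes also dropped, to 5.92% lower and 2.93% higher. Without knockout 1 or wild type 1 alone the count of higher genes was 2, beside 3.75% and 4.51% of all genes. The 3 wild-type and 3 knockout values did not overlap for 17 genes with lower and 2 with higher levels in the knockout, which is 25.4% and 2.99%, beside 16.1% and 8.26% of all genes.

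The median log2 fold change of the 67 genes was −0.53, beside −0.087 over all genes tested. Fold changes were also wider than usual for the table: 33 of 67 genes differed at least 2-fold in either direction, beside 14.7% of all genes. The spread between libraries of 1 genotype was wider too. The median SD of log2(TPM + 1) within wild type was 0.725 for these genes and 0.372 for all genes, and within the knockout it was 0.592 and 0.396. In 12 of the 67 genes the wild-type libraries alone spanned at least 10-fold, and in 15 the knockout libraries did. Wild type 1 held the highest value of the 6 libraries for 29 of the 67 genes (43.3%), beside 14.7% of all genes. Without wild type 1 the median log2 fold change of the 67 genes was −0.55, and without both seed-rich libraries it was −0.36. The part of wild type 1 in the lower knockout means was not tested beyond such fits.

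**Figure D1:**
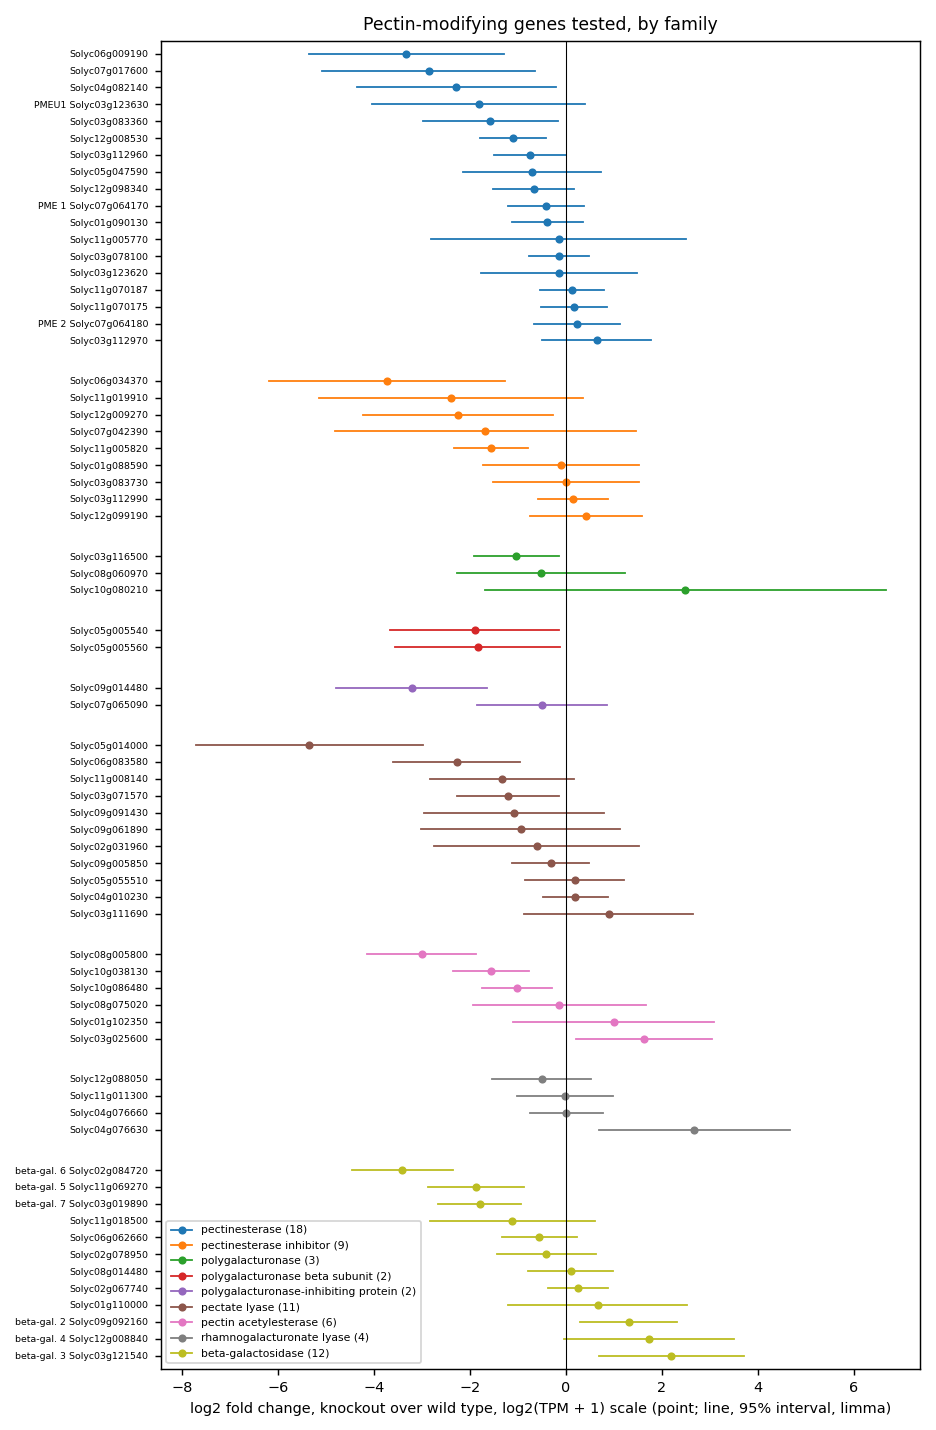
Log2 fold change of each of the 67 tested pectin-modifying genes, knockout over wild type on the log2(TPM + 1) scale, by family, with 95% intervals from limma; numbers in the legend count the genes. Points left of 0 have lower knockout means (46 genes). The widest departure on the lower side is the pectate lyase gene Solyc05g014000 at −5.35. On the higher side it is the rhamnogalacturonate lyase gene Solyc04g076630 at 2.68.

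Pectinesterases gave the most abundant transcript of all these families. Pectin methylesterase 1 (Solyc07g064170) stood at 2912, 1565 and 2233 TPM in the wild-type libraries, compared with 1921, 1220 and 1839 TPM in those of the knockout. The groups overlapped, and the difference of −0.41 on the log2 scale (SE 0.34, 95% interval −1.21 to 0.38, limma adjusted p = 0.584) was within the spread between libraries. This 1 gene made up between 67.8% and 82.0% of the summed pectinesterase level in wild type and between 73.4% and 82.8% in the knockout. Pectin methylesterase 2 (Solyc07g064180), whose identifier is next to it, stood at 264, 96.5 and 127 TPM in the wild-type libraries, compared with 193, 149 and 184 TPM in those of the knockout, with wild type 1 the highest library for both.

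The third abundant pectinesterase, pmeu1 (Solyc03g123630), varied mostly inside wild type. It stood at 460, 28.9 and 182 TPM there and at 20.3, 45.4 and 56.9 TPM in the knockout (log2 fold change −1.82, SE 0.94, limma adjusted p = 0.373). Its wild type 2 value lay among the knockout values. A further pectinesterase gene (Solyc07g017600) had the same order of wild-type libraries, with 285, 22.4 and 86.0 TPM against 9.72, 25.2 and 4.36 TPM in the knockout (limma adjusted p = 0.190). Solyc06g009190 showed this order again, with 75.8, 7.74 and 22.4 TPM against 0.10, 4.05 and 1.76 TPM, and here the groups did not overlap (log2 fold change −3.33, SE 0.86, limma adjusted p = 0.132). Without the seed-rich libraries its log2 fold change was −1.94, and those of Solyc07g017600 and pmeu1 were −1.93 and −0.51.

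At low levels, Solyc12g008530 stood at 1.77, 1.60 and 2.83 TPM in the wild-type libraries and 0.32, 0.44 and 0.47 TPM in those of the knockout, without overlap (limma adjusted p = 0.136). The gene described as pectinesterase 1 (Solyc03g112970), distinct from pectin methylesterase 1, was at 1.03, 4.86 and 1.26 TPM and 4.71, 4.33 and 2.32 TPM (limma adjusted p = 0.551). Of the 18 tested pectinesterases, 14 had a lower and 4 a higher knockout mean, and the median over them was −0.54 on the log2 scale. A pair with near-equal values, Solyc11g070175 and Solyc11g070187, kept a ratio between 0.945 and 1.20 in all 6 libraries, and reads shared between such copies cannot be told apart in this table. Summed over the family, the level was 3051 ± 1196 TPM in the wild-type libraries and 2082 ± 372 TPM in the knockout (SD, n = 3), and the groups overlapped.

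The family counted as pectinesterase inhibitors had the lowest summed level in the knockout relative to wild type of all 9 families, although the libraries overlapped. Its most abundant genes carry the shared invertase/pectin methylesterase inhibitor description, so their target may be invertase. The family summed to 686, 176 and 575 TPM in the wild-type libraries and 104, 203 and 159 TPM in those of the knockout, with wild type 2 among the knockout libraries. The inhibitor-domain gene Solyc06g034370 stood at 45.5, 60.1 and 339 TPM in the wild-type libraries, compared with 2.35, 30.2 and 2.96 TPM in those of the knockout, without overlap (log2 fold change −3.73, SE 1.04, limma adjusted p = 0.147). Wild type 3 was by far its highest library, whereas pmeu1, Solyc07g017600 and Solyc06g009190 were highest in wild type 1.

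Solyc12g009270, of the same superfamily, was highest in wild type 1, with 338, 64.3 and 133 TPM against 11.96, 21.0 and 94.8 TPM in the knockout (limma adjusted p = 0.233). Solyc07g042390 stood at 159.8, 9.97 and 28.4 TPM and at 3.52, 74.6 and 3.54 TPM (limma adjusted p = 0.570), so that knockout 2 exceeded 2 of the wild-type libraries. The gene with the lowest adjusted p among the inhibitors was Solyc11g005820, at 3.0, 1.51 and 3.55 TPM in the wild-type libraries and 0.17, 0.16 and 0.29 TPM in those of the knockout (log2 fold change −1.57, SE 0.33, limma adjusted p = 0.0958). Over the 9 tested inhibitors the median log2 fold change was −1.57, with 6 lower and 3 higher, but it was −0.63 without wild type 1, −1.01 without knockout 1 or knockout 3 and 0.046 without the seed-rich libraries.

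Polygalacturonase is represented mainly by Solyc10g080210, which the table describes by the enzyme name alone and which the tomato literature calls PG2A, the fruit enzyme that accumulates at ripening. It stood at 0.04, 50.4 and 48.7 TPM in the wild-type libraries, compared with 108, 10.8 and 367 TPM in those of the knockout. Knockout 2 lay below 2 wild-type libraries, and wild type 1 was almost without the transcript. The difference of 2.49 on the log2 scale (SE 1.78, 95% interval −1.69 to 6.67, limma adjusted p = 0.524) was within the spread between libraries, and it was 0.62 without wild type 1, 3.85 without knockout 2, 1.37 without knockout 3 and 0.38 with the seed-rich pair left out. The gene made up 99.6% of the summed polygalacturonase level in knockout 3 and 0.43% in wild type 1.

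The other 2 tested polygalacturonases were near or below 10 TPM. XOPG1 (Solyc03g116500) stood at 3.86, 1.73 and 4.30 TPM in the wild-type libraries and 1.20, 1.47 and 0.51 TPM in those of the knockout, without overlap (log2 fold change −1.03, SE 0.38, limma adjusted p = 0.226). Polygalacturonase AF118567 (Solyc08g060970) stood at 5.50, 6.19 and 13.6 TPM and at 9.14, 11.1 and 0.86 TPM (limma adjusted p = 0.777), with knockout 3 apart. Neither of the genes described as abscission polygalacturonases reached the level for testing.

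The β subunit of polygalacturonase isoenzyme 1 is a non-catalytic wall protein that binds the enzyme and is known from immature fruit. Its gene (Solyc05g005560) had the second highest mean of the 210 genes, with 915, 594 and 737 TPM in the wild-type libraries and 267, 535 and 59.8 TPM in those of the knockout. The groups did not overlap, yet knockout 2 was close to wild type 2 (log2 fold change −1.84, SE 0.73, 95% interval −3.56 to −0.13, limma adjusted p = 0.255), and without knockout 3 the log2 fold change was −0.96. A lesser β subunit gene nearby (Solyc05g005540) kept the same order of knockout libraries, at 3.45, 6.13 and 0.10 TPM, against 17.8, 5.27 and 14.6 TPM in wild type (limma adjusted p = 0.252). In knockout 3 the β subunit genes were at their lowest and PG2A at its highest. This was the 1 family of 9 whose summed level did not overlap between genotypes. Solyc05g005560 made up between 98.1% and 99.8% of that sum in every library, so the sum repeats this 1 gene. Over all genes, 16.1% were lower and 8.26% higher in the knockout without overlap.

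Polygalacturonase-inhibiting proteins are defence proteins of the cell wall. Solyc09g014480 stood at 22.3, 7.16 and 21.6 TPM in the wild-type libraries, compared with 0.15, 3.38 and 0.06 TPM in those of the knockout, without overlap (log2 fold change −3.22, SE 0.67, limma adjusted p = 0.0958). The more abundant Solyc07g065090 overlapped, with 131, 26.9 and 54.1 TPM against 33.4, 31.0 and 64.4 TPM (limma adjusted p = 0.719). Its log2 fold change of −0.50 became 0.086 without wild type 1.

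Pectate lyases cut the de-esterified backbone, and their genes differed in which library was high. The pectate lyase gene with the widest difference was Solyc05g014000, at 365, 30.2 and 82.7 TPM in the wild-type libraries and 0.36, 6.47 and 0.37 TPM in those of the knockout, without overlap (log2 fold change −5.35, SE 1.01, limma adjusted p = 0.0904). Its range over fits with 1 library left out was −6.18 to −4.41, and it was −4.00 without both seed-rich libraries. It held between 21.5% and 61.8% of the summed pectate lyase level in wild type and between 0.17% and 3.33% in the knockout.

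Solyc03g111690, the gene known in the tomato literature as the fruit-softening pectate lyase PL, stood at 19.3, 10.7 and 26.7 TPM in the wild-type libraries, compared with 11.9, 106 and 29.0 TPM in those of the knockout. Only knockout 2 was above the wild-type range by a wide margin, and without it the log2 fold change of 0.89 (SE 0.75, limma adjusted p = 0.595) was 0.072. PG2A was lowest of the knockout libraries in the one where PL was highest.

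Solyc06g083580 stood at 90.7, 19.3 and 32.6 TPM in the wild-type libraries and 6.82, 10.3 and 5.13 TPM in those of the knockout, without overlap (log2 fold change −2.28, SE 0.56, limma adjusted p = 0.119). Solyc03g071570 was likewise lower without overlap, at 9.40, 3.15 and 3.73 TPM against 1.07, 2.73 and 1.12 TPM (limma adjusted p = 0.232). Solyc02g031960 was high in library 3 of each genotype, with 45.3, 25.2 and 117 TPM and 12.1, 21.7 and 133 TPM (limma adjusted p = 0.788), and those numbers do not pair the libraries. Of the 11 tested pectate lyases 8 had a lower and 3 a higher knockout mean, and their median was −0.95 on the log2 scale. This median shrank to −0.56 without knockout 1, to −0.52 without knockout 2 and to −0.46 without wild type 3. It was −1.47 without wild type 2, and −0.33 with the seed-rich pair left out.

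**Figure D2:**
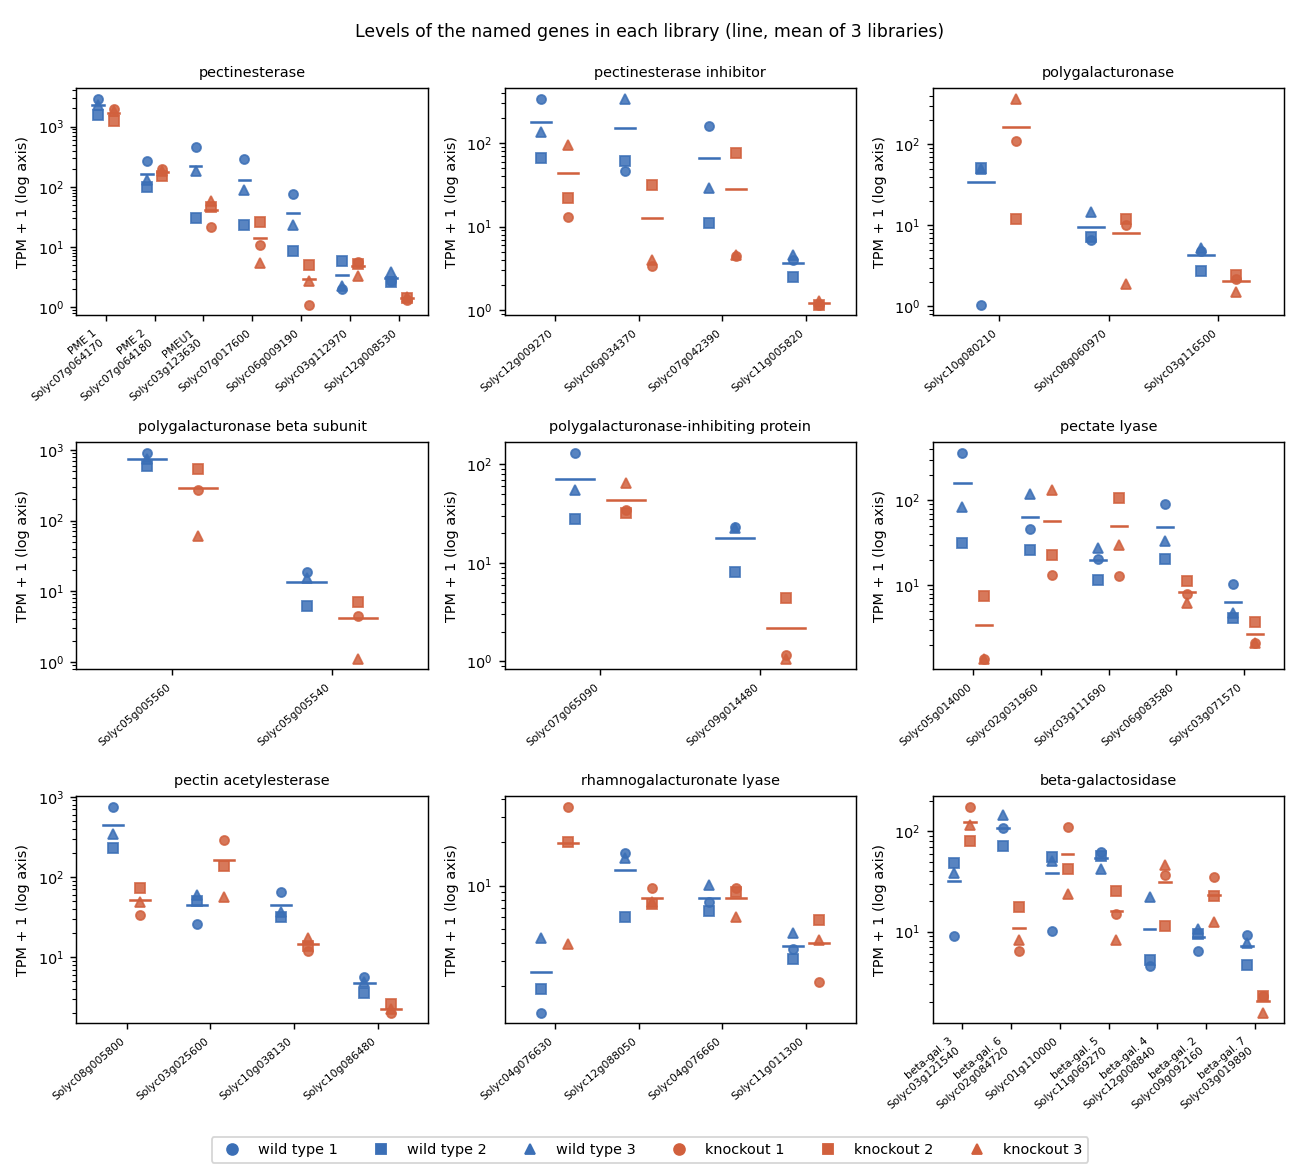
Level of the named genes of each family in every library, as TPM + 1 on a log axis; blue is wild type, orange is the knockout, marker shape is the library number and the short line is the mean of 3 libraries. Separated groups are seen for the pectate lyase gene Solyc05g014000 and for β-galactosidase 6, while PG2A (Solyc10g080210) spans 0.04 to 50.4 TPM in the wild-type libraries and 10.8 to 367 TPM in the knockout.

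Pectin acetylesterases showed a different leading gene in each genotype. Solyc08g005800 stood at 754, 232 and 346 TPM in the wild-type libraries, compared with 32.3, 72.1 and 47.2 TPM in those of the knockout, without overlap (log2 fold change −3.01, SE 0.48, 95% interval −4.14 to −1.87, limma adjusted p = 0.0806). Solyc03g025600 stood at 24.9, 48.5 and 57.9 TPM in the wild-type libraries, compared with 286, 138 and 55.6 TPM in those of the knockout (log2 fold change 1.63, SE 0.60, limma adjusted p = 0.227), with knockout 3 inside the wild-type range. Its log2 fold change was 1.07 without knockout 1 and 0.71 with the seed-rich pair left out. Solyc08g005800 held between 62.8% and 87.7% of the summed acetylesterase level in wild type and between 7.41% and 31.9% in the knockout. Solyc03g025600 held between 2.90% and 13.2% in wild type and between 37.6% and 65.6% in the knockout. These shares are computed inside a library and do not depend on how libraries are scaled. They were computed for every tested gene, and these examples were picked after their values were seen and were not tested.

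A pair of lesser acetylesterases also had lower, non-overlapping levels in the knockout. Solyc10g038130 stood at 63.4, 30.7 and 35.5 TPM in the wild-type libraries and 10.9, 12.7 and 16.6 TPM in those of the knockout (log2 fold change −1.57, SE 0.34, limma adjusted p = 0.0988). Solyc10g086480 stood at 4.66, 2.56 and 3.91 TPM and at 1.01, 1.57 and 1.26 TPM (limma adjusted p = 0.163). The median log2 fold change over the 6 tested genes was −0.58, with 4 lower and 2 higher; it was −0.27 without knockout 2 and −0.96 without the seed-rich libraries.

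Rhamnogalacturonate lyases were the least abundant family by summed mean level, with 4 genes tested. Solyc04g076630 stood at 0.30, 0.90 and 3.32 TPM in the wild-type libraries, compared with 34.4, 19.1 and 2.93 TPM in those of the knockout (log2 fold change 2.68, SE 0.85, limma adjusted p = 0.177). Knockout 3 lay below wild type 3, so the groups overlapped, and without the seed-rich libraries the log2 fold change was 1.63. Solyc04g076660, with 2 untested members of the family between them by identifier, stood at 6.67, 5.65 and 9.12 TPM against 8.60, 8.03 and 5.0 TPM (log2 fold change 0.0037, 95% interval −0.76 to 0.77, limma adjusted p = 0.997). Solyc12g088050 stood at 15.8, 5.03 and 14.6 TPM and 8.62, 6.50 and 6.64 TPM, and Solyc11g011300 at 2.64, 2.11 and 3.66 TPM and 1.14, 4.74 and 3.16 TPM (limma adjusted p = 0.607 and 0.990).

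β-Galactosidases held the gene with the lowest adjusted p of all 67. β-Galactosidase 6 (Solyc02g084720, TBG6) stood at 107, 70.6 and 145 TPM in the wild-type libraries, compared with 5.38, 16.7 and 7.18 TPM in those of the knockout. Every wild-type value was above every knockout value, a difference of −3.42 on the log2 scale (SE 0.45, 95% interval −4.47 to −2.37, limma adjusted p = 0.0618). Across all alternatives its log2 fold change stayed between −3.85 and −3.09, with adjusted p between 0.054 and 0.362.

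β-Galactosidase 5 (Solyc11g069270) had the same direction, at 61.7, 56.0 and 41.5 TPM in the wild-type libraries and 13.98, 24.3 and 7.22 TPM in those of the knockout, without overlap (log2 fold change −1.87, SE 0.43, limma adjusted p = 0.106). β-Galactosidase 7 (Solyc03g019890) stood at 8.28, 3.67 and 6.64 TPM and at 1.25, 1.28 and 0.54 TPM, also without overlap (log2 fold change −1.80, SE 0.37, limma adjusted p = 0.0954).

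β-Galactosidases 2, 3 and 4 had higher means in the knockout. β-Galactosidase 3 (Solyc03g121540) stood at 8.10, 47.2 and 37.6 TPM in the wild-type libraries, compared with 176, 78.7 and 115 TPM in those of the knockout, without overlap (log2 fold change 2.20, SE 0.64, limma adjusted p = 0.155). β-Galactosidase 2 (Solyc09g092160) stood at 5.46, 8.53 and 9.61 TPM and at 34.1, 21.6 and 11.5 TPM, again without overlap (log2 fold change 1.31, SE 0.43, limma adjusted p = 0.188). β-Galactosidase 4 (Solyc12g008840, TBG4), the isoform best known from studies of softening, stood at 3.58, 4.24 and 21.2 TPM and at 35.9, 10.5 and 44.9 TPM (log2 fold change 1.73, SE 0.75, limma adjusted p = 0.296), with wild type 3 above knockout 2. β-Galactosidases 2 and 3 were the 2 genes of all 67 with higher, non-overlapping knockout levels. Without the seed-rich libraries the log2 fold changes of β-galactosidases 2, 3 and 4 were 0.74, 1.16 and 1.09.

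The summed level of the family was close in both genotypes, at 359 ± 72.9 TPM in the wild-type libraries and 351 ± 123 TPM in the knockout (SD, n = 3). Within each wild-type library the genes for β-galactosidases 5, 6 and 7 together exceeded those for 2, 3 and 4, by 10.3, 2.17 and 2.83 times. Within each knockout library the order was the opposite, with 2, 3 and 4 together 11.9, 2.62 and 11.5 times above 5, 6 and 7. The former group made up between 38.9% and 58.7% of the family in wild type and between 4.18% and 14.5% in the knockout. The latter made up between 5.68% and 17.9% and between 37.9% and 63.9%. Both groupings were chosen after the values were seen, so these shares are a description with no test. Of the remaining tested members, the gene with the highest mean, Solyc01g110000, stood at 9.07, 54.7 and 49.5 TPM and at 109, 41.4 and 22.9 TPM (limma adjusted p = 0.730).

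**Figure D3:**
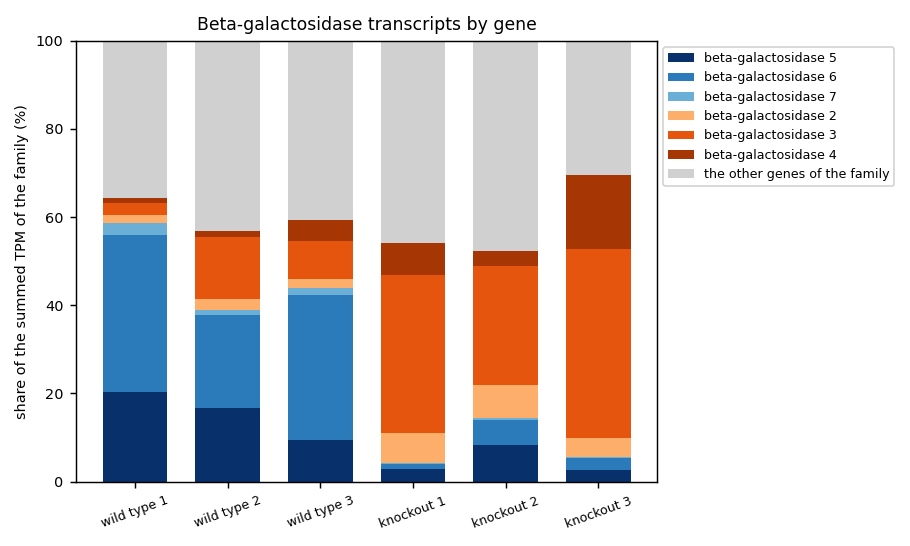
Share of the summed β-galactosidase TPM taken by numbered genes in each library, as stacked bars from 0 to 100%. The blue genes (5, 6 and 7) take 38.9% to 58.7% in wild type and 4.18% to 14.5% in the knockout, and the orange genes (2, 3 and 4) take 5.68% to 17.9% and 37.9% to 63.9%.

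RIN and phytoene synthase 1 had the same highest library as some of the softening genes. RIN, a MADS-box regulator required for ripening, was read at 1.53, 19.7 and 8.14 TPM in the wild-type libraries, compared with 27.3, 20.9 and 113 TPM in those of the knockout. Phytoene synthase 1, the entry enzyme of carotenoid synthesis in fruit, stood at 76.1, 175 and 156 TPM and at 96.5, 142 and 643 TPM. Knockout 3 was highest for both, as it was for PG2A and TBG4, and wild type 1 was lowest for RIN, PG2A and TBG4. PL did not follow this order, with its highest level in knockout 2. In the rest of the ripening list, Tomato AGAMOUS-like 1 and FRUITFULL-like MADS-box 2 were highest in wild type 2, at 241 and 296 TPM. FRUITFULL-like MADS-box 1 stood at 872 TPM in both wild type 2 and knockout 3. The remaining genes were highest in knockout 3. One of them, a NAC domain gene (Solyc10g006880) taken here as NOR, stood at 3.29, 28.86 and 28.95 TPM in the wild-type libraries. In those of the knockout it stood at 80.4, 54.0 and 402 TPM. RIN and this gene were higher in the knockout without overlap (limma adjusted p = 0.228 and 0.190), beside 8.26% of all genes. The other genes of the list overlapped. Among them, a peptide methionine sulfoxide reductase gene (Solyc03g111720) stood at 69.9 and 27.9 TPM in knockouts 1 and 2, below every wild-type library. The part of ripening stage in these differences was not tested, and in bulk RNA fewer cells of a type and less RNA per cell cannot be told apart.

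Other marker lists are given beside these values for the same reason. The seed list of 111 genes, which takes in lipid-transfer superfamily genes, summed to 14328, 1516 and 1964 TPM in the wild-type libraries and 5397, 746 and 2276 TPM in those of the knockout. Without the lipid-transfer superfamily the remaining 59 genes summed to 4807, 249 and 296 TPM and to 5025, 412 and 528 TPM. The vascular list of 94 genes summed to 1195, 515 and 1207 TPM and to 505, 601 and 486 TPM. Its wild type 2 sum lay within the knockout range. Of its 31 tested members, 18 had a lower and 13 a higher knockout mean, with a median of −0.13 on the log2 scale. The photosynthesis list of 183 genes summed to 8174, 4194 and 3875 TPM and to 10401, 8321 and 12115 TPM. The pollen list of 19 genes summed to 298, 121 and 139 TPM in the wild-type libraries and 87.7, 99.4 and 50.6 TPM in those of the knockout, without overlap. Only 4 pollen genes were tested, 2 with a lower and 2 with a higher knockout mean. Every knockout sum was above every wild-type sum for photosynthesis genes. In these 4 lists limma called 0 genes, beside 0.0926% of all genes. At an unadjusted p under 0.05 there were 40 of 135 tested (29.6%), beside 17.5% of all genes, and 27 of the 40 were among the 67 tested photosynthesis genes. The part of these tissues in the levels of pectin-modifying genes was not tested.

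**Figure D4:**
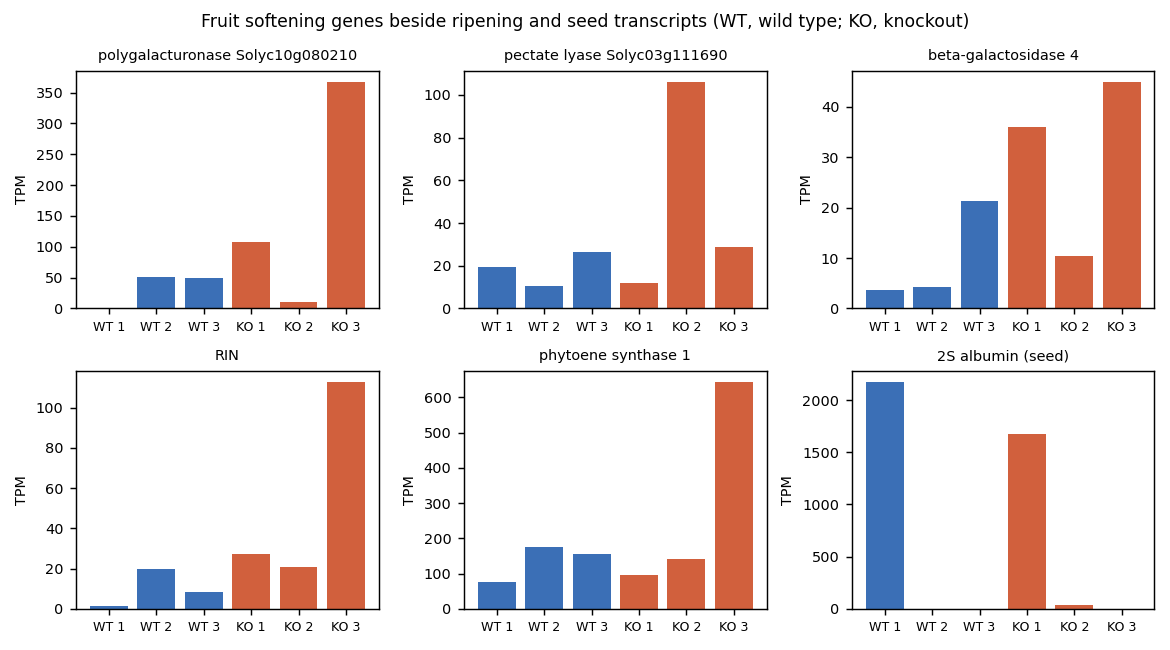
TPM of the polygalacturonase gene PG2A (Solyc10g080210), the pectate lyase gene PL (Solyc03g111690), β-galactosidase 4, RIN, phytoene synthase 1 and a 2S albumin in each of the 6 libraries (bars from 0). Knockout 3 is highest for PG2A, β-galactosidase 4, RIN and phytoene synthase 1, knockout 2 for PL, and the seed transcript is high in wild type 1 and knockout 1.

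A second list of 31 genes, chosen by description, was meant for genes that make pectin precursors or trim its other side chains. None of its descriptions names pectin. It also held hydroxyproline O-arabinosyltransferase-like and α-galactosidase genes, which may act on other substrates, so its counts are not of pectin genes alone. Of 21 tested, limma called 0, beside 0.0926% of all genes. At an unadjusted p under 0.05 there were 3 lower (14.3%) and 1 higher (4.76%), close to the 11.3% and 6.24% of all genes. In the knockout 13 had a lower and 8 a higher mean, and the median over the 21 was −0.15 on the log2 scale. A UDP-apiose/UDP-xylose synthase gene (Solyc11g066720), for an enzyme that makes sugar donors for pectin side chains, stood at 156, 62.9 and 127 TPM in the wild-type libraries, compared with 18.2, 25.9 and 18.8 TPM in those of the knockout, without overlap (log2 fold change −2.32, SE 0.37, limma adjusted p = 0.0806). An α-L-arabinofuranosidase gene (Solyc10g081120), for an enzyme that removes arabinose, stood at 14.2, 42.4 and 31.7 TPM and at 324, 154 and 78.6 TPM, higher without overlap (log2 fold change 2.51, SE 0.58, limma adjusted p = 0.110), with a log2 fold change of 1.56 without the seed-rich libraries.

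A UDP-glucuronate 4-epimerase gene (Solyc09g092330), which supplies the backbone sugar donor, stood at 126, 67.9 and 112 TPM and at 16.1, 60.0 and 11.6 TPM (limma adjusted p = 0.150). For the most abundant genes of this list the differences were within the spread between libraries: a second 4-epimerase gene (Solyc07g006220) had a log2 fold change of −0.71, a second UDP-apiose/UDP-xylose synthase gene (Solyc01g009420) −0.15 and an alkaline α-galactosidase gene (Solyc07g065980) −0.014 (limma adjusted p = 0.361, 0.848 and 0.995).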

How the data were processed

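One table of 40229 genes was used, as deposited by the authors. No unit stands in its header. Because column sums lay from 987932 to 994646, the deposited values were read as TPM. TopHat2, HISAT2, StringTie and Cufflinks are named in the submitters' processing notes, without roles; a genome build is not given in the sources used here. Depth cannot be had from TPM and is unknown, so counting intervals are not given. Columns were assigned to a genotype by their names, and 0 columns were left without one.

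The 18368 genes that reached 1 TPM in 3 or more libraries entered a single fit with limma 3.58.1 (R 4.3.3). It used log2(TPM + 1) values, limma-trend, and Benjamini-Hochberg correction across every gene fitted; SE and 95% intervals come from this fit. The fit was tested on simulated data with values drawn independently for each gene. Effects shared by many genes of a library, such as seed RNA, were not simulated, so that test does not cover them. Fold changes on this scale understate changes of low genes. With 3 libraries per genotype, the smallest two-sided p of an exact permutation test is 0.1.

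Named were genes numbered or named in the table, PG2A and PL, and in each family the 3 highest by mean and the 3 lowest by p. The genes and lists were chosen with earlier results of these data known. Family names come from the descriptions. The β subunits were split from the polygalacturonases. Figures used matplotlib 3.10.9. Sequences were not used here.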

Additional observations from a re-analysis of the deposited data

How the results depend on the processing

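No paired analysis was possible because the columns carry numbers that the sample labels do not share. There were 12 alternatives. They were median-ratio scaling, no filter, a pseudocount of 0.1, a 5 TPM filter, robust limma, each library left out and both seed-rich libraries left out. In all of them limma called 0 pectin-modifying genes and 0 genes of the second list. The lowest limma adjusted p of a pectin-modifying gene was 0.0541. In these fits between 0 and 27 genes of the whole table were called. Median-ratio scaling moved the median of all genes by 0.10 and that of the pectin-modifying genes to −0.44.

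With no filter, 128 genes were tested, 80 lower and 48 higher; the median was −0.066, and that of pectate lyases −0.064, acetylesterases −0.0088 and pectinesterase inhibitors −0.048. With the filter of 5 TPM 30 genes were lower, and the polygalacturonase median, over fewer genes, was 0.98. The median of polygalacturonase-inhibiting proteins was −2.69 with a pseudocount of 0.1. With pectin lyase-like and ss-galactosidase genes added, chosen after seeing the data, the overall median was −0.41. Those added genes alone, 14 of them tested, had a median of 0.067, with 8 higher and 6 lower in the knockout. Without the seed-rich libraries the inhibitor median was 0.046, and 12 genes were lower and 1 higher at an unadjusted p under 0.05. Counts at an unadjusted p were also added after seeing the data; with 1 library left out they were 14 to 25 lower and 2 to 5 higher, beside 7.47% to 11.7% lower and 3.75% to 9.51% higher of all genes in the same fits.

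Of 44 named genes, 34 kept their sign in all alternatives, and 22 had a log2 fold change that moved by over 1.5 times when 1 library was left out. Leaving out 1 library gave ranges across 0 for Solyc01g110000 (−0.14 to 1.17), Solyc02g031960 (−1.60 to 0.075), Solyc04g076660 (−0.13 to 0.21), Solyc07g064180 (−0.072 to 0.65), Solyc07g065090 (−1.04 to 0.086), Solyc08g060970 (−1.02 to 0.33), Solyc11g011300 (−0.33 to 0.38), Solyc01g009420 (−0.39 to 0.14) and Solyc07g065980 (−0.95 to 0.62). Without the seed-rich libraries the sign changed for Solyc01g110000 (−0.74), Solyc04g076660 (−0.16), Solyc07g042390 (0.046), Solyc07g065090 (0.22) and Solyc11g011300 (0.36), and under median-ratio scaling for Solyc11g011300 (0.089) and Solyc07g065980 (0.11). The cause was not tested. The number of libraries and unknown depth limit what low genes can show.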
